A study of Mus musculus with 4 samples.

Results

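The genes described here are 9 members of the mouse MHC class I family: the classical heavy chains H2-K1 and H2-D1, their light chain B2m, and the non-classical heavy chains H2-Q4, H2-Q6, H2-Q7, H2-T22, H2-T23 and H2-M3. They were taken by name, and all 9 were found among the 29835 genes of the series. Their unique molecular identifiers (UMIs, each standing for 1 captured transcript) were summed in 4 kinds of cells, which were set by the UMIs of other genes. A tumour cell had at least 5 UMIs of Krt7, Krt8, Krt18, Krt19 and Wt1 together and no Ptprc. A myeloid cell had at least 3 UMIs of Lyz2 and Csf1r and at most 2 of the keratins. A T cell had at least 2 UMIs of Cd3d, Cd3e and Cd3g, and a B cell at least 3 of Cd79a and Cd79b. Each sum was scaled to CPM, UMIs per 1000000 UMIs of the same cells.

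Single-cell RNA sequencing was done on ascites of C57BL/6 mice that carried ID8-Trp53-/- cells, a Trp53 knockout of a line from mouse ovarian surface epithelium, syngeneic to the host. The tumour cells had 7 days to engraft, and treatment then ran up to an ascites volume near 3 mL. All groups carried the same Trp53-/- tumour line in immunocompetent female mice, and per the methods the line also carried an iRFP reporter from a lentivirus. Control mice received DMSO with an IgG control antibody, and the BTYNB group received BTYNB with that antibody. The anti-PD-1 group received DMSO with a PD-1 blocking antibody, and the combination group, the one with both agents, received BTYNB with the PD-1 blocking antibody. BTYNB is a small molecule directed against Igf2bp1, an RNA-binding protein. The labels give 50 mg/kg for BTYNB and 100 ng for each antibody dose, whereas the study's methods state other amounts, which were not reconciled here. Cells of several animals were pooled into 1 library per treatment, so no difference below has a replicate check or a test, and every interval covers counting error only.

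MHC class I molecules hold short peptides on the cell surface for inspection by CD8 T cells. The heavy chain folds around the peptide together with beta-2 microglobulin, the product of B2m, and is retained in the endoplasmic reticulum until it has done so. Heavy chain genes respond to interferon and to NF-kB, and Nlrc5 is their class I transactivator. Non-classical chains vary less between individuals and serve other receptors. H2-T23 encodes Qa-1, which presents leader peptides of classical chains to CD94-NKG2 receptors of natural killer cells, and H2-M3 presents peptides that begin with formyl-methionine.

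The promoters of 6 members are shown because class I promoters share the elements through which interferon and NF-kB reach these genes. Each run is the 180 bases before the annotated transcription start, 5′ to 3′ on the gene's strand, from RefSeq on GRCm38.p6. The deposited counts were made on GRCm39 per the labels, so these positions are not those of the count files. Capitals mark matches, on either strand, to the interferon-response core AANNGAAA, the kappa-B core GGGGATTCC and the CCAAT box.
H2-K1 (chr17:34000334-34000513, minus strand): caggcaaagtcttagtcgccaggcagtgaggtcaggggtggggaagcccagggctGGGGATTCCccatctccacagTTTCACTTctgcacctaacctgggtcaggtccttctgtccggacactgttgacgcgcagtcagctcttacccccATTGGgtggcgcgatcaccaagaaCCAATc
H2-D1 (chr17:35262914-35263093, plus strand): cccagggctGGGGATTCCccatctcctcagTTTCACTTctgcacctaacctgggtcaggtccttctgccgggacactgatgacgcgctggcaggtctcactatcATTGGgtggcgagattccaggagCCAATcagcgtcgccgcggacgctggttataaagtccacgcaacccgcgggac
H2-Q6 (chr17:35424670-35424849, plus strand): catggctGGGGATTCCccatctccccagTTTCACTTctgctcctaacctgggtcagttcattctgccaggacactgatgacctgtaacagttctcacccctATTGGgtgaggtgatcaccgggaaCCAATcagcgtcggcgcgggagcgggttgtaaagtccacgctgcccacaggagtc
H2-Q7 (chr17:35438975-35439154, plus strand): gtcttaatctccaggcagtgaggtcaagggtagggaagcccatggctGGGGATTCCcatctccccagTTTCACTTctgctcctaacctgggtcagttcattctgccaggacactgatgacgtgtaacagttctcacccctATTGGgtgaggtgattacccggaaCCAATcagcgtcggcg
H2-T23 (chr17:36032702-36032881, minus strand): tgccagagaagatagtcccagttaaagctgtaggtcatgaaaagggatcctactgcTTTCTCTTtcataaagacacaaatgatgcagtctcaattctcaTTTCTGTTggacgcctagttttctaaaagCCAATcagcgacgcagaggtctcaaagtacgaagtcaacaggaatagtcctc
B2m (chr2:122147507-122147686, plus strand): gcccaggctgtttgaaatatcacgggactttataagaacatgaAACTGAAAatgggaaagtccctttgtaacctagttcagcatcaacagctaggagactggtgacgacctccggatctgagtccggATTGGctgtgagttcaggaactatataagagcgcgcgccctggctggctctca
All 9 members had a promoter in the table, and H2-K1 had 2 annotated starts, of which the downstream one was used. The interferon-response core was found in 8 of 9 members, all but H2-T22, against 15.1% of the 32851 promoters of that length. The kappa-B core was found in H2-K1, H2-D1, H2-Q6 and H2-Q7, 4 of 9 members, against 0.143% of promoters. That is the share of this exact version of 9 letters, not of kappa-B sites in general. The 4 runs are alike around it, so their matches are not independent. The CCAAT box was found in all 9 members, against 27.5%. The H2-K1, H2-D1, H2-Q6 and H2-Q7 runs carry the kappa-B core upstream of the same interferon-response letters. B2m and H2-T23 carry other versions of the interferon-response core and no match to GGGGATTCC. Other versions of a kappa-B site were not searched for, so none is said to be absent. These are matches of letters, not measured binding.

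The libraries held 7834 cells in control, 18283 after BTYNB, 12019 after anti-PD-1 and 7042 after both, once filtered, 45178 in all. Before filtering they held 78603888 to 114600397 UMIs per library. The tumour gate took 7114 cells in control, 3606 after BTYNB, 10923 after anti-PD-1 and 4369 after both, with medians of 9783, 15221, 7160 and 11503 UMIs per cell. The myeloid gate took 292, 3134, 384 and 1258 cells in the same order, the T gate 22, 2481, 30 and 158, and the B gate 31, 3475, 39 and 286. The smallest deposited cell had 869 UMIs in BTYNB and from 3533 to 5115 in the other libraries. No more than 4 cell labels were shared by any pair of libraries.

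The gates were checked with markers that the rule did not use. Msln, Upk3b, Upk1b, Lrrn4 and Muc16, genes of mesothelium and ovarian surface epithelium, summed to 816 to 1071 CPM in tumour cells and to 28.2 to 122 CPM in myeloid cells. In the T gate the same genes reached 890 CPM in control and 865 CPM in anti-PD-1, and in the B gate 1409 and 848 CPM, as high as in tumour cells. The T and B gates of control and anti-PD-1 are therefore not described below as T or B cells. In BTYNB and combination the T gate held 225 and 498 CPM of these genes beside 2791 and 1124 CPM of T cell markers. The B gate held 557 and 813 CPM of them beside 3527 and 1353 CPM of B cell markers. The tumour marker list also held Epcam, Wfdc2, Cldn3, Cldn7 and Krt14. Epcam was at 0.08 to 0.23 CPM in tumour cells, but in BTYNB at 3.09 CPM in myeloid and 12.2 CPM in T-gate cells. Wfdc2 and Cldn7 had at most 1 UMI per library in tumour cells, and Cldn3 was at 1.29 to 1.79 CPM. Krt14 was at 14.0 to 31.0 CPM in tumour cells and at 0.667 to 2.32 CPM in myeloid cells. Neutrophil markers made up 1866 CPM of the BTYNB myeloid gate, 409 CPM of the control gate, 51.1 after anti-PD-1 and 37.6 after both.

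H2-K1, the classical chain known as H-2K, was higher in tumour cells of all 3 treated libraries than in control. Its level was 2108 CPM in control, 2875 after BTYNB, 2807 after anti-PD-1 and 2933 after both, and the treated libraries lay close together. The log2 ratio to control was 0.45 for BTYNB and 0.41 for anti-PD-1. Adding BTYNB to anti-PD-1 gave 0.06, and adding anti-PD-1 to BTYNB gave 0.03. Ratios here are of CPM + 1, and a gene is called past the fold when its log2 ratio is at least 0.5 in size and the 95% counting interval lacks 0. H2-K1 stayed under that limit in the 4 treatment comparisons of tumour cells.

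H2-D1, the other classical chain, spanned a narrower range. Tumour cells had 1990 CPM in control, 2068 after BTYNB, 2254 after anti-PD-1 and 2211 after both, with log2 ratios to control of 0.06 for BTYNB and 0.18 for anti-PD-1. B2m, the light chain shared by all heavy chains here, had 4118, 3945, 3869 and 4719 CPM in the same order. It was the combination library that stood above the other 3, by a log2 ratio of 0.29 against anti-PD-1 and 0.26 against BTYNB. Each single agent was slightly below control in B2m, at -0.06 and -0.09. H2-K1 and B2m thus peaked in combination and H2-D1 in anti-PD-1, with each of these differences under the fold.

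**Figure D1:**
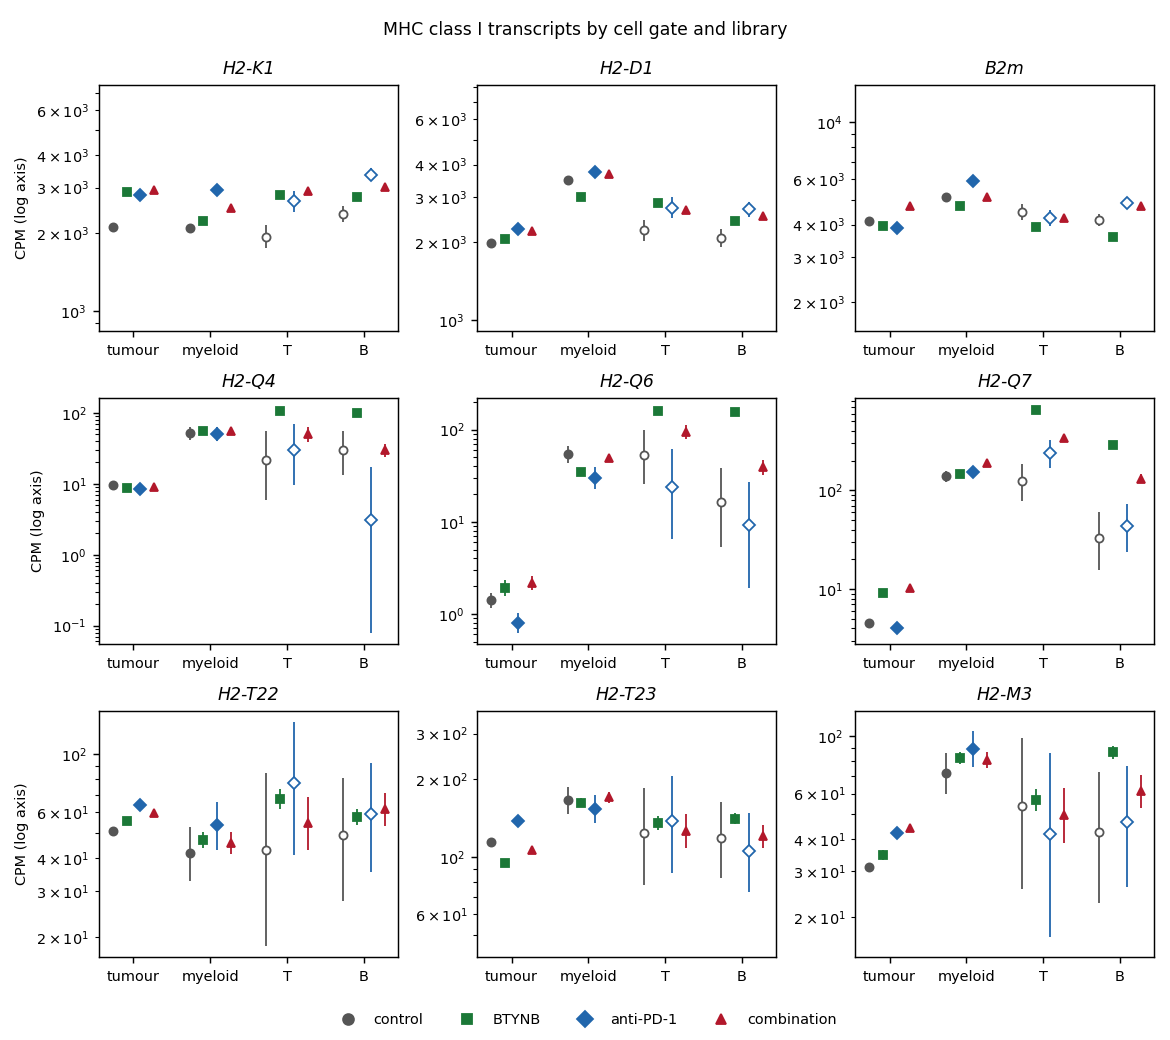
Level of each of the 9 class I genes in CPM, on a log axis, by library and cell gate, with 95% counting intervals and open markers for the T and B gates of control and anti-PD-1, which hold tumour markers. H2-Q4, H2-Q6 and H2-Q7 lie far lower in tumour cells than in myeloid cells of every library, whereas H2-K1 lies at similar levels in both.

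The classical pair changed unequally, which can be given as a ratio of their UMIs. The size of that ratio also depends on how well each transcript is captured, so only its change between libraries is described. In tumour cells H2-K1 UMIs per H2-D1 UMI were 1.06 (1.05 to 1.07) in control, 1.39 (1.38 to 1.40) after BTYNB, 1.25 (1.24 to 1.25) after anti-PD-1 and 1.33 (1.32 to 1.34) after both. In myeloid cells they were 0.600 in control, 0.747 after BTYNB, 0.785 after anti-PD-1 and 0.682 after both. Control was the lowest library in both kinds of cells. The ratio was 0.994 and 1.10 in the T gates of BTYNB and combination, and 1.15 and 1.19 in their B gates. H2-K1 UMIs per B2m UMI in tumour cells were 0.512 in control, 0.729 after BTYNB, 0.725 after anti-PD-1 and 0.622 after both, again lowest in control. H2-K1 and H2-D1 are similar in sequence, so reads from shared stretches could be assigned to either.

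**Figure D2:**
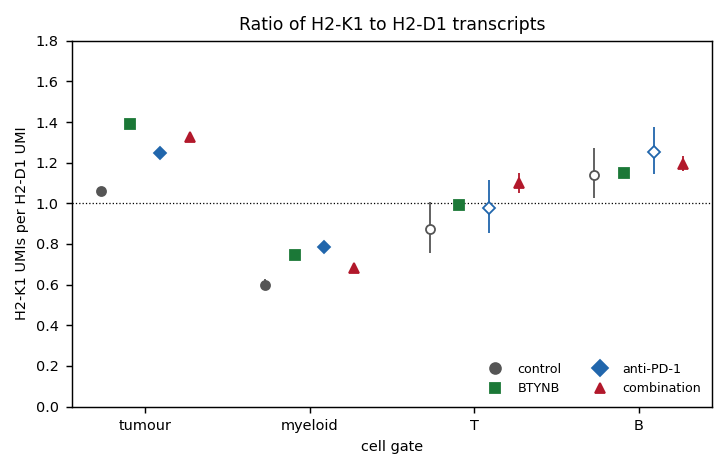
UMIs of H2-K1 per UMI of H2-D1 by library and cell gate, with 95% counting intervals. Control is the lowest library in tumour cells (1.06) and in myeloid cells (0.600).

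H2-M3, the presenter of formylated peptides, had 31.1 CPM in control tumour cells, 34.7 after BTYNB, 42.4 after anti-PD-1 and 44.2 after both. Both libraries with the PD-1 antibody were above both without it, and anti-PD-1 alone gave a log2 ratio of 0.43. H2-T22, whose product is a ligand of some gamma-delta T cell receptors, had 50.9, 55.3, 64.1 and 59.5 CPM in the same order, highest in anti-PD-1. H2-T23 had 114, 94.3, 137 and 107 CPM. For H2-T23 the library with BTYNB was the lower one in both pairs, at -0.27 for BTYNB alone and -0.36 for BTYNB on top of anti-PD-1. None of these 3 genes passed the fold in a treatment comparison of tumour cells.

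The calls in tumour cells came from H2-Q7 and H2-Q6. H2-Q7, which encodes the Qa-2 antigen, had 4.49 CPM in control and 4.01 CPM in anti-PD-1, but 9.07 CPM with BTYNB and 10.4 CPM with both agents, from 337, 331, 525 and 578 UMIs. Both libraries with BTYNB were above both without it. H2-Q7 passed the fold at 0.87 (0.70 to 1.04) for BTYNB alone, taken against control, and at 1.18 (1.01 to 1.35) where BTYNB was added to anti-PD-1. H2-Q6, its close neighbour, had 1.40 CPM in control, 1.92 after BTYNB, 0.800 after anti-PD-1 and 2.19 after both, from 105, 111, 66 and 122 UMIs. It passed the fold for combination against anti-PD-1 at 0.82 (0.58 to 1.05) but was 0.28 (0.03 to 0.53) for BTYNB against control. H2-Q4 had 9.66, 8.67, 8.40 and 9.10 CPM and passed in no treatment comparison. H2-Q6 and H2-Q7 share most of their sequence with each other and with further Q genes, so how UMIs divide between these names is uncertain.

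B and T cell transcripts in the tumour gate were highest in the same libraries as H2-Q7. B cell markers summed to 3.6 CPM in control and 2.5 CPM in anti-PD-1, against 17.1 CPM with BTYNB and 15.2 CPM with both agents, with all 6 listed genes above 0 in every library. T cell markers summed to 15.1, 19.96, 13.7 and 21.6 CPM from control to combination, with all 8 listed genes above 0, and Trac alone gave 8.84 to 12.9 CPM. Macrophage and monocyte markers, all 9 of them above 0, summed to 32.0, 44.4, 73.7 and 80.5 CPM and neutrophil markers to 16.5, 7.7, 2.1 and 2.1 CPM, and neither sum followed the order of H2-Q7. H2-Q7 also fell off with depth. From the shallowest to the deepest quartile of tumour cells its level went from 12.0 to 1.07 CPM without agents, from 19.8 to 3.38 after BTYNB, from 7.88 to 2.06 after anti-PD-1 and from 23 to 5.80 after both. Within each quartile, both libraries with BTYNB were above both without it.

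When each cell was thinned to 1000 UMIs, an H2-Q7 UMI was found in 0.520% of tumour cells in control, 0.976% after BTYNB, 0.348% after anti-PD-1 and 0.984% after both, against 1.95%, 4.74%, 1.81% and 5.61% without thinning. Ighm, an immunoglobulin gene that tumour cells should lack, was found in 0.127% of the thinned cells in control, 36 of 3587 after BTYNB, 0.0732% after anti-PD-1 and 0.732% after both. The T cell receptor gene Trbc2 was found in 0.0562%, 0.251%, 0.0549% and 0.206%. The H2-Q7 share was above that of Ighm in control, anti-PD-1 and combination but not in BTYNB, where 35 of 3587 cells had an H2-Q7 UMI. A share at the level of Ighm cannot be told apart from RNA of other cells by this count. In the BTYNB B gate, Ighm was at 1619 CPM and H2-Q7 at 290 CPM. Leukocyte profiles were also subtracted from the tumour sums in proportion to T, B and macrophage genes, with the T genes chosen after the data had been seen. H2-Q7 was then 3.52, 5.91, 2.60 and 6.13 CPM, and its log2 ratio was 0.61 for BTYNB alone and 0.99 for BTYNB on top of anti-PD-1. H2-Q6 was then 0.30 for combination against anti-PD-1 and no longer passed the fold. The part of leukocyte RNA in these differences was not tested further.

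**Figure D3:**
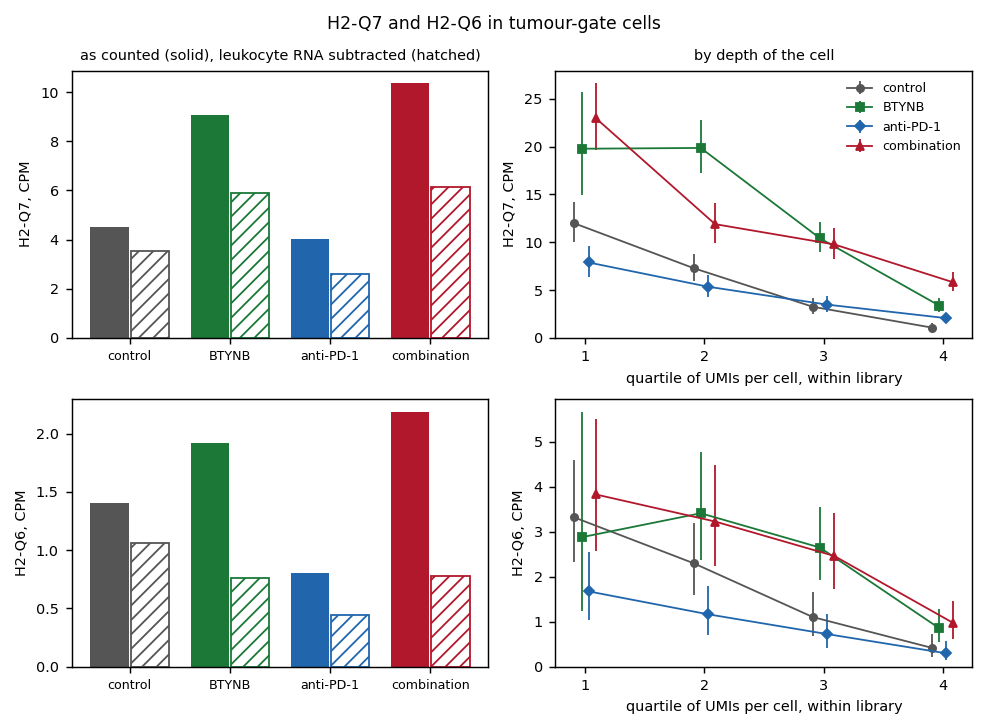
H2-Q7 and H2-Q6 in tumour-gate cells in CPM, left as bars by library as counted (solid) and after leukocyte subtraction (hatched), right by quartile of UMIs per cell within the library with 95% counting intervals. Both libraries with BTYNB are higher for H2-Q7 as counted (9.07 and 10.4 CPM against 4.49 and 4.01 CPM), and H2-Q7 is lower in the deepest than in the shallowest cells of each library.

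The calls among class I members in tumour cells are given beside the share of all genes past the fold. BTYNB alone gave 1 of 9 members past the fold, against 10.5% of the 12705 genes with at least 100 UMIs in either library. Anti-PD-1 alone gave 0 of 9, against 12.4% of 13094 genes. For combination against anti-PD-1, 2 of 9 passed, against 13.7% of 13010 genes, and for combination against BTYNB 0 of 9 passed, against 1.04% of 12418 genes. The members' median log2 ratios were 0.12, 0.18, 0.06 and 0.13 in these comparisons, and the medians of all tested genes were -0.00, -0.07, 0.05 and -0.01. The comparisons share libraries in pairs, so their values are given side by side only.

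**Figure D4:**
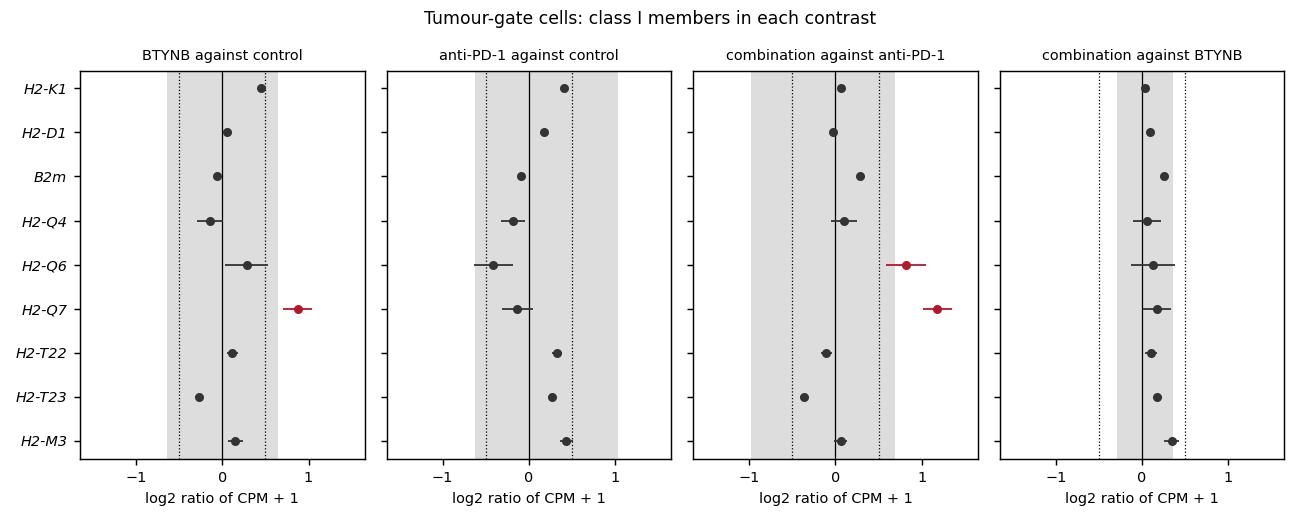
Log2 ratio of CPM + 1 for each class I gene in tumour-gate cells in the 4 treatment comparisons, with 95% counting intervals, a grey band for the central 95% of all tested genes, dotted lines at 0.5 in size and red for genes past the fold. H2-K1 is at 0.45 and 0.41 for the single agents against control, and H2-Q7 is at 0.87 and 1.18 where BTYNB was added.

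Among single tumour cells, the anti-PD-1 library was the most spread in H2-K1. The 10th and 90th percentiles of H2-K1 per cell were 915 and 3610 CPM in control, 1122 and 4600 CPM in BTYNB, 905 and 5119 CPM in anti-PD-1, and 1484 and 4587 CPM in combination. That is a range of 3.95-fold, 4.10-fold, 5.66-fold and 3.09-fold. Tumour cells of anti-PD-1 were also the shallowest, with a median of 7160 UMIs against 9783, 15221 and 11503 in control, BTYNB and combination. The part of counting error in the spread was not tested. Across the cells of a library, H2-K1 and H2-D1 had a Pearson correlation of 0.65 in control, 0.56 after BTYNB, 0.68 after anti-PD-1 and 0.70 after both, a description over cells that share a library and differ in depth.

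In tumour cells of the anti-PD-1 library H2-K1 differed with Cd24a, a surface sialoglycoprotein gene. The part of Cd24a in the spread of H2-K1 was not tested. In that library 1291 tumour cells had 5 or more Cd24a UMIs and 7076 had none, against 58, 57 and 45 cells with 5 or more in control, BTYNB and combination. In anti-PD-1, H2-K1 was at 1214 CPM in the cells with 5 or more and at 3377 CPM in those without, a log2 ratio of -1.48 (-1.50 to -1.45). H2-D1 was at 1470 against 2497 CPM and B2m at 2538 against 4303 CPM, a log2 ratio of -0.76 for each. All 3 most abundant members were thus lower in the Cd24a cells of that library.

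The non-classical members went the same way in anti-PD-1. H2-M3 was at 10.6 CPM with 5 or more Cd24a UMIs and 53.9 CPM without, a log2 ratio of -2.25, and H2-Q4 at 1.32 against 11.9 CPM, a ratio of -2.47. H2-T22 was at 40.9 against 70.5 CPM, a ratio of -0.77, and H2-Q7 at 1.71 against 4.67 CPM, a ratio of -1.07. Values under about 2 CPM rest on 17 to 22 UMIs. H2-T23 was at 110 against 144 CPM, and its ratio of -0.40 did not pass the fold. H2-Q6 had 2 and 47 UMIs, too few to be among the tested genes. Of the 8 members with enough UMIs, 7 were past the fold, all lower, against 46.1% of 12007 genes, so many other genes differed between these cells as well.

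Depth and cell identity differed with Cd24a too. The anti-PD-1 cells with 5 or more Cd24a UMIs had a median of 9761 UMIs against 6430 in those without, and the mesothelial genes named above summed to 138 against 1119 CPM. Those cells therefore passed the keratin gate but carried little of the mesothelial markers of the other tumour cells. Within the deepest quartile of anti-PD-1 tumour cells, 767 cells with 5 or more and 1133 without had medians of 11138 and 10378 UMIs. There the log2 ratio of H2-K1 was -1.40, with H2-D1 at -0.75, B2m at -0.81, H2-M3 at -2.14, H2-Q4 at -2.52 and H2-T22 at -0.80, each past the fold and within 0.11 of its value over all depths. H2-Q7 was at -0.21 there and did not pass.

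In the other libraries the cells with 5 or more Cd24a UMIs were few and carried 931, 928 and 885 CPM of the mesothelial genes in control, BTYNB and combination, against 138 CPM in anti-PD-1, so cells that differ in these markers are set side by side. Between cells with 5 or more Cd24a UMIs and cells without, the log2 ratio of H2-K1 was 0.10 in control, 0.11 in BTYNB and -0.05 in combination, and that of H2-D1 was 0.27, 0.23 and 0.10. In each of them 1 member, H2-Q7, was past the fold and lower, against 14.0% of genes in control, 20% with BTYNB and 15.0% with both agents. That rests on 0, 4 and 3 H2-Q7 UMIs in the cells with 5 or more, whose median depths were 15417, 34147 and 20282 UMIs. In the deepest quartile H2-Q7 passed in none of the 3, whereas H2-T23 passed in control at 0.68 and H2-M3 in BTYNB at -0.57. The difference in H2-K1 between anti-PD-1 and the other libraries was not tested, since each is 1 library.

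The Cd24a cells also bear on the comparison of anti-PD-1 with control. Tumour cells without a Cd24a UMI had an H2-K1 log2 ratio of 0.70 between anti-PD-1 and control, an H2-M3 ratio of 0.81 and an H2-T22 ratio of 0.52. In all tumour cells the same ratios were 0.41, 0.43 and 0.33.

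**Figure D5:**
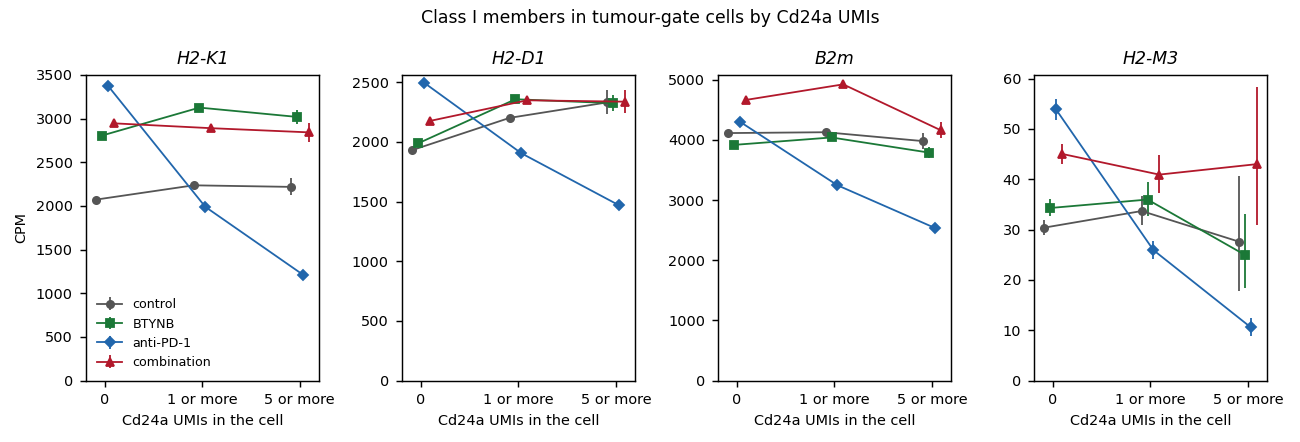
H2-K1, H2-D1, B2m and H2-M3 in CPM in tumour-gate cells with 0 Cd24a UMIs, with 1 or more, and with 5 or more (also counted among the former), by library, with 95% counting intervals. In anti-PD-1, H2-K1 is at 3377 CPM without and 1214 CPM with 5 or more and H2-M3 at 53.9 and 10.6 CPM, whereas the H2-K1 log2 ratio lies within 0.11 of 0 in the other libraries.

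H2-T23 was lower in tumour cells with a UMI of a proliferation gene in each library. Tumour cells with a UMI of Mki67 or Top2a, genes of dividing cells, had 98.1 CPM of H2-T23 in control against 143 CPM in cells without. The pair was 73.2 and 118 CPM after BTYNB, 115 and 176 after anti-PD-1, and 92.5 and 130 after both. The log2 ratios were -0.54, -0.68, -0.60 and -0.48, the last of which was short of the fold. H2-M3 had log2 ratios in the same direction of -0.29, -0.21, -0.48 and -0.35, none past the fold. Cells with such a UMI had higher median depths in every library, 10946 against 8463 UMIs in control for example, and the part of depth was not tested. No share of all genes past the fold was taken for this split, and only H2-T23 and H2-M3 are described for it.

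Myeloid cells carried more of most class I members than tumour cells of the same library. In control, BTYNB, anti-PD-1 and combination 6 of 9 members were past the fold, all of them higher, against 54.4%, 69.9%, 51.1% and 66.8% of tested genes in either direction. In anti-PD-1 one of them, H2-Q6, had too few UMIs to be among the tested genes. Genes past the fold and higher were 2441 of 12740, 3109 of 12892, 2262 of 13019 and 2808 of 12699, in the same order. H2-Q7 was at 140, 148, 153 and 191 CPM in myeloid cells, log2 ratios of 4.68, 3.88, 4.94 and 4.08 to tumour cells. H2-Q6 was at 54.1, 35.1, 30.2 and 48.9 CPM and H2-Q4 at 51.8, 55.1, 50.5 and 54.8 CPM. H2-M3 was past the fold in all 4 libraries, at 72.2, 82.6, 89.4 and 80.9 CPM and ratios of 1.19, 1.23, 1.06 and 0.86. H2-D1 was also past it in all 4, at 3474, 2983, 3732 and 3674 CPM and ratios of 0.80, 0.53, 0.73 and 0.73.

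H2-K1 and H2-T22 passed the fold between myeloid and tumour cells in no library. H2-K1 was at 2085 CPM in control, 2227 after BTYNB, 2928 after anti-PD-1 and 2506 after both, log2 ratios of -0.02, -0.37, 0.06 and -0.23 to tumour cells. H2-T22 was at 41.9, 46.9, 53.4 and 45.9 CPM, ratios of -0.28, -0.23, -0.26 and -0.37. The 2 remaining members differed by library. The log2 ratio of B2m to tumour cells was past the fold in anti-PD-1 at 0.61 and at 0.31, 0.26 and 0.11 in control, BTYNB and combination. H2-T23 was past it in control at 0.54, BTYNB at 0.78 and combination at 0.67, and was at 0.16 in anti-PD-1.

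Between treatments, the call in myeloid cells was H2-Q6. Its log2 ratio was -0.61 for BTYNB against control, the 1 of 9 members past the fold, against 28.0% of 9247 genes. For combination against anti-PD-1 it was higher by 0.68, again 1 of 9 members, against 20.9% of 8126 genes. For combination against BTYNB 0 of 9 members passed, against 14.0% of 9308 genes. For anti-PD-1 against control 0 of the 6 members with 100 UMIs passed, against 13.8% of 3206 genes. H2-Q6 was outside those genes with 52 and 93 UMIs and stood at -0.82. H2-Q6 was therefore highest in control and combination and lowest in anti-PD-1, from few cells in control and anti-PD-1.

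The abundant members moved less in myeloid cells. The log2 ratio of H2-K1 to control was 0.09 for BTYNB and 0.49 for anti-PD-1, and anti-PD-1 was its highest library. B2m was at 5106, 4728, 5902 and 5107 CPM from control to combination, with log2 ratios between -0.21 and 0.21 over the 4 comparisons. The myeloid gate mixes cell kinds whose shares differed between libraries, and neutrophil markers ranged from 37.6 to 1866 CPM, as given above. The part of that mixture in the differences was not tested.

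Within the myeloid gate, cells with at least 3 C1q UMIs, a mark of macrophages, differed from cells without. In BTYNB, 1707 such cells against 1232 had a log2 ratio of 0.35 in B2m and of -0.61 in H2-Q6. In combination, 949 against 243 cells had a B2m ratio of 0.69, an H2-D1 ratio of 0.50, an H2-K1 ratio of 0.37 and an H2-Q6 ratio of -0.65. H2-Q6 was lower and B2m higher in C1q cells of both libraries. No share of all genes past the fold was taken for this split, so these values have no background beside them.

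The Q genes had the largest log2 ratios of the members between the lymphocyte gates of BTYNB and combination and tumour cells, as they had between myeloid and tumour cells. In the T gate H2-Q7 was at 650 CPM with BTYNB and 343 CPM with both agents, log2 ratios of 6.01 and 4.92 to tumour cells. H2-Q6 was at 158 and 94.8 CPM (5.77 and 4.91), and H2-Q4 at 106 and 49.6 CPM (3.46 and 2.32). With H2-T23 and H2-M3 at 0.52 and 0.70 in BTYNB, 5 of 9 members were past the fold there, against 63.6% of genes. In combination 3 of 9 were, against 33.2% of genes.

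In the B gate H2-Q7 was at 290 CPM with BTYNB and 132 CPM with both agents, log2 ratios of 4.85 and 3.55 to tumour cells. H2-Q6 was at 154 and 39.0 CPM (5.73 and 3.65), and H2-Q4 at 98.1 and 29.5 CPM (3.36 and 1.60). H2-T23 at 0.57 and H2-M3 at 1.30 also passed in BTYNB. Among B cells that passed only the B gate, 3141 in BTYNB and 123 of the 286 in combination, H2-Q7 was at 419 and 226 CPM, H2-Q6 at 227 and 81.6 CPM and H2-Q4 at 142 and 38.5 CPM, above the values of the whole gate. Over the whole gate, the calls came to 5 of 9 members in BTYNB, against 53.8% of genes, and 3 of 9 in combination, against 16.3%. H2-Q7 UMIs per H2-Q6 UMI were 1.88 (1.79 to 1.99) in the B gate of BTYNB and 4.10 (3.85 to 4.37) in its T gate. In combination they were 3.38 (2.76 to 4.17) and 3.62 (2.98 to 4.43), with overlapping intervals. The proportion thus differed between the gates beyond counting error in BTYNB only.

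After thinning to 1000 UMIs, an H2-Q7 UMI was found in 50.2% of T cells and 36.6% of B cells of BTYNB, and in 29.1% and 18.2% in combination. Without thinning the shares were 75.8%, 61.1%, 80.4% and 55.6%. The share in myeloid cells was 12.2% to 17.6% over the 4 libraries, and that in tumour cells was under 1% in each, as given above. In these thinned shares the order was T, B, myeloid, tumour in BTYNB, and the B and myeloid shares of combination, 18.2% and 17.6%, were close. By summed level combination had the reverse order of that pair, with H2-Q7 at 132 CPM in the B gate and 191 CPM in the myeloid gate, and so did the shares without thinning, at 55.6% and 63.0%. Cells that passed only 1 gate did not show that reverse order. Among them H2-Q7 was at 226 CPM in B and 183 CPM in myeloid cells of combination, with unthinned shares of 77.2% and 61.7%.

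The classical chains and B2m had similar levels in the lymphocyte gates and in tumour cells. H2-K1 was at 2811 CPM with BTYNB and 2924 CPM with both agents in the T gate, and at 2771 and 3025 CPM in the B gate. H2-D1 was at 2828 and 2664 CPM in the T gate and 2409 and 2532 CPM in the B gate. B2m was at 3928 and 4262 CPM in the T gate and 3599 and 4721 CPM in the B gate. None of these passed the fold against tumour cells of the same library. The gates held tumour RNA, and scaling the tumour profile to the mesothelial genes assigned to it 21.0% of the T gate UMIs and 52.1% of the B gate UMIs in BTYNB, and 49.8% and 81.3% in combination. The 813 CPM of mesothelial genes in the combination B gate lay near the 848 CPM of the anti-PD-1 B gate. The part of tumour RNA in the similar levels was not tested. In BTYNB T cells that passed only that gate, 842 cells with Cd8a and no Cd4 had a log2 ratio of -0.40 in H2-K1, -0.44 in H2-D1 and -0.05 in H2-Q7 to the 393 cells with Cd4 and no Cd8a.

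Combination against BTYNB in lymphocytes gave 3 lower Q genes, which did not hold up. In the T gate the log2 ratios of H2-Q4, H2-Q6 and H2-Q7 were -1.08, -0.73 and -0.92, 3 of 9 members, against 38.4% of 8118 genes. In the B gate they were at -1.70, -1.95 and -1.13, 3 of 9 members, against 37.7% of 9897 genes. The BTYNB gates held shallow cells that combination did not: 2240 of 2481 T cells and 3092 of 3475 B cells were below 5115 UMIs, the smallest cell of combination. Among cells of at least that depth the ratios turned to 0.07, 0.49 and 0.18 in T cells and to 0.39, 0.46 and 0.92 in B cells. Tumour markers were higher in the combination gates, as given above. No direction between these libraries is therefore drawn for the Q genes of lymphocytes.

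Of 32 other class I and class I-like genes listed, 21 were in the files and 11 were tested in tumour cells. For BTYNB against control 2 were higher and 2 lower, against 10.5% of all tested genes past the fold. Cd1d1, a lipid presenter, had a log2 ratio of 0.60 and the class I gene H2-K2 at 0.51, while Fcgrt, the neonatal Fc receptor, was at -0.84 and the NKG2D ligand Raet1d at -0.67. For anti-PD-1 against control H2-M2 was higher at 0.59 and Fcgrt lower at -0.94, beside 12.4% of all tested genes. Cd1d1 was higher at 0.64 for combination against anti-PD-1, beside 13.7% of all tested genes. None passed for combination against BTYNB, beside 1.04%. Fcgrt was thus lower with either agent alone, at 38.6 CPM in control, 21.1 after BTYNB and 19.7 after anti-PD-1, and was at 20.2 CPM after both.

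The genes that supply peptides to class I had 0 to 3 calls per treatment comparison in tumour cells, beside the shares of all genes given above. Of 9 peptide loading genes, Tap2 at 0.60 and Tap1 at 0.57, which form the peptide transporter, were higher on the log2 scale for anti-PD-1 against control. Hspa5, an endoplasmic reticulum chaperone, was lower at -0.72 for combination against BTYNB, and none passed in the other 2 comparisons. Of 9 proteasome genes, Psme2, a subunit of the interferon-inducible proteasome activator, was lower than in control at -0.65 for BTYNB and -0.71 for anti-PD-1, and none passed elsewhere. The median log2 ratios of the loading genes were 0.16, 0.04, -0.14 and -0.09 from BTYNB against control to combination against BTYNB.

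Of 23 regulators of class I, 1 to 3 passed in 3 of the 4 tumour comparisons. The kinase gene Jak2 was higher at 0.52 for BTYNB alone, 1 of 22 tested regulators, beside 10.5% of all tested genes. For anti-PD-1 alone, Irf8 at 0.61 and Socs1 at 0.51 were higher, while the interferon gamma receptor gene Ifngr1 was lower at -0.54. These were 3 of 23 regulators, beside 12.4% of all tested genes. For combination against anti-PD-1, the NF-kB subunit gene Relb was higher at 0.57 and Nlrc5 at 0.52. That is 2 of 23 regulators, beside a share of 13.7%. For combination against BTYNB none passed, beside 1.04%. In myeloid cells 9 of 22 tested regulators were higher and 0 lower for BTYNB against control, with Jak2 at 1.40 and Irf8 at 1.35. Their median was 0.47 against -0.01 for all tested genes. Of all genes 28.0% were past the fold in that comparison, and neutrophil markers of the myeloid gate were at 409 CPM without and 1866 CPM with the agent. The part of neutrophils in the regulator values was not tested.

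The Cd24a cells of anti-PD-1 were lower in several of these genes. Between cells with 5 or more Cd24a UMIs and cells without, the log2 ratio of Nlrc5 was -1.56, with the immunoproteasome gene Psmb8 at -1.39 and Tap1 at -0.89, whereas Irf1 at -0.42 did not pass. In the other libraries Psmb8 was at 0.88 in control, 0.88 in BTYNB and 0.51 in combination. Cd274, which encodes the PD-1 ligand, had a ratio of -1.12 in anti-PD-1. In all tumour cells Cd274 was at 8.50, 13.6, 17.7 and 20.5 CPM from control to combination, lowest in control. Its log2 ratio to control was 0.63 for BTYNB and 0.98 for anti-PD-1, both past the fold. For combination it was 0.55 against BTYNB, past the fold, and 0.20 against anti-PD-1. H2-K1 was also lowest in control but passed the fold in none of these comparisons.

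The genes most like H2-K1 over the 16 combinations of library and gate, among 7100 genes, were Gadd45a, Dcaf6 and Anapc16, with Pearson correlations of log2 CPM of 0.85, 0.80 and 0.78. For B2m they were Ap2m1, C4b and Dbi at 0.90, 0.88 and 0.88, and for H2-T23 Acap2, Iqgap1 and Mcl1 at 0.90, 0.90 and 0.89. The combinations share libraries, and 4 of them are the lymphocyte gates that carry tumour markers.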

How the data were processed

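Single-cell libraries of ascites cells were made on BD Rhapsody, 1 per treatment with animals pooled. Whole-number UMI counts per gene and cell were deposited by the authors as 1 matrix per library, mapped to GRCm39 per the labels. Per the study's methods the counts came from the BD Rhapsody analysis pipeline. Files were matched to groups by the labels. The 9 genes, the gates and the gene lists were chosen with earlier results of these data known.

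Cells with fewer than 200 genes or over 33% mitochondrial UMIs were removed. UMIs were summed per library and gate and scaled to CPM, and groups of fewer than 20 cells were not compared. Levels have exact Poisson 95% intervals. Log2 ratios used a pseudocount of 1 CPM, with an exact binomial interval of the share of the 2 counts. Genes with at least 100 UMIs in either group made up the tested background. No p-value was computed, since each group has 1 library. Depth was 78603888 to 114600397 UMIs per library before filtering, and PCR and capture error are not covered by the intervals. No doublets were removed beyond the gates, because the automatic threshold of scrublet (run in scanpy 1.11.5) called 1, 479, 4 and 20 cells in control, BTYNB, anti-PD-1 and combination. Removal of the 5% with the highest score was an alternative. Other alternatives were a floor of 5115 UMIs per cell, the mean over cells, median-of-ratios scaling, stricter gates, cells of 1 gate only, no quality filter, a pseudocount of 10 CPM, tumour cells without Cd24a or cycle genes, and subtraction of tumour RNA from leukocyte sums. Leukocyte subtraction, the joint gate and floor setting, and the limit of 5 Cd24a UMIs were added after the data had been seen.

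All 9 members were named in every comparison. Other class I genes with 100 UMIs could be named. Up to 6 loading, proteasome and regulator genes past the fold were named per comparison, with a few more in the Cd24a split chosen after their values were seen. Promoters and motif shares came from RefSeq on GRCm38.p6. The ratio step was tested on simulated counts. Python 3.11.15, numpy 2.4.6, scipy 1.17.1, pandas 2.3.3 and matplotlib 3.10.9 were used.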

Additional observations from a re-analysis of the deposited data

Results flagged for a closer look

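With 1 library per group, a result is listed here when an agent's log2 ratio had opposite signs, each with a counting interval without 0, in the absence and in the presence of the other agent. The differences between the paired values were not tested. In tumour cells the BTYNB ratio of B2m was -0.062 without anti-PD-1 and 0.29 with it, and the anti-PD-1 ratio of B2m was -0.090 without BTYNB and 0.26 with it. The BTYNB ratio of H2-D1 was 0.055 without anti-PD-1 and -0.028 with it, and that of H2-T22 was 0.12 and -0.10. In myeloid cells the BTYNB ratio of H2-K1 was 0.095 without anti-PD-1 and -0.22 with it. The BTYNB ratio of H2-Q6 in myeloid cells was -0.61 and 0.68, and its anti-PD-1 ratio was -0.82 without BTYNB and 0.47 with it. The H2-Q6 values rest on 93 UMIs in control and 52 in anti-PD-1.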

How the results depend on the processing

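Over the counts of members past the fold, 109 values stayed within 1.5 times the reported count and 24 did not, and the cause was not tested. In tumour cells, the 1 call of BTYNB against control became 2 with stricter gates and 0 with a pseudocount of 10 CPM. The 0 calls of anti-PD-1 against control became 3 without Cd24a cells and 1 each with the mean over cells, median-of-ratios scaling, no cycling cells or leukocyte subtraction. The 2 calls of combination against anti-PD-1 became 1 with a pseudocount of 10 CPM or leukocyte subtraction, and the 0 calls of combination against BTYNB became 1 without cycling cells (H2-Q7, 0.64). In myeloid cells, counted over all 9 members, the 1 call of BTYNB against control became 0 under the common floor, and the 1 call of anti-PD-1 against control became 3 under the floor and 2 with median-of-ratios scaling. The 0 calls of combination against BTYNB became 1 each with the mean over cells, stricter gates, cells of 1 gate, doublets removed or tumour RNA subtracted. For combination against BTYNB, the 3 calls became 0 under the floor and 1 with 1 gate and the floor in T cells, and 1 under the floor and 5 with the mean over cells in B cells. Subtracting tumour RNA raised the 13 calls of T cells and the 13 of B cells against tumour cells, over all 4 libraries, to 22 and 26. That subtraction took up to 95% of the UMIs of the lymphocyte gates in control and anti-PD-1. The 24 calls of myeloid against tumour cells stayed within 1.5 times under each alternative run. H2-Q7 stayed higher, at 0.40 to 1.27 with BTYNB alone and 0.54 to 1.33 with BTYNB added to anti-PD-1 in tumour cells.

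Single values reversed only in combination against BTYNB of lymphocytes. Under the floor H2-Q4, H2-Q6 and H2-Q7 were 0.065, 0.49 and 0.18 in T cells and 0.39, 0.46 and 0.92 in B cells. With 1 gate and the floor they were 0.29, 0.71 and 0.26 in T cells and 0.30, 0.69 and 0.86 in B cells. With tumour RNA subtracted H2-Q7 was 0.062 in B cells. T against tumour cells was not run under the floor, stricter gates or 1 gate, nor B against tumour cells under the last 2, since only 2 of 4 libraries had 20 cells. No paired analysis was possible because each group has 1 library and no test was made. Depth limits H2-Q6 most, with 66 to 122 UMIs in tumour cells.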
